A study of Mus musculus with 12 samples.

Results

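Interferon-stimulated genes are the genes that cells switch on when interferon binds its receptor. Open chromatin around 43 of them was followed in mouse natural killer (NK) cells with and without the gene for Regnase-1 and with and without the cytokines IL-12 and IL-18. The 43 genes were taken as a named list, drawn up with earlier results of these data known. An interval of open chromatin was given to the nearest protein-coding gene within 50 kb. This gave 84 regions at 36 of the 43 genes, of 45082 regions in all, and 124 of 66900 regions when every deposited interval was used.

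Interferons signal through JAK kinases to STAT and IRF transcription factors. Many of their target genes carry the interferon-stimulated response element (ISRE), bound by IRF-containing complexes, or the gamma-activated site (GAS). The products of the target genes block viral entry, translation and assembly, sense foreign nucleic acid and attack the vacuoles of intracellular microbes. NK cells that meet IL-12 and IL-18 are a main source of interferon-gamma, and Regnase-1 is an endonuclease that degrades messenger RNAs of immune genes.

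Spleen NK cells were compared in 4 groups of 3 libraries. The library names give a WT and a KO genotype, each as control or after IL-12/18. The series' design text names the genotypes Reg-1fl/fl, in which the Regnase-1 gene carries loxP sites, and Reg-1ΔNK, in which it is deleted in NK cells, so the controls carry the floxed alleles as well. The Cre driver, the ages of the mice, the cytokine doses and the length of treatment are not given in the sources used here, and nothing says whether replicates came from separate animals, so p-values measure the spread between these libraries, which may be technical. Each library was made by ATAC-seq, in which a transposase cuts open DNA, from 100000 cells.

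The deposited lists held 35110 to 63128 intervals per library and were shortest in KO stimulated replicates 1 and 2, at 35110 and 42543. The strongest 35110 of each library were therefore compared, ranked by the authors' −log10 q-value, with rank 1 the strongest. At that point the −log10 q-value was 1.31 in KO stimulated replicate 1 and 27.1 in WT stimulated replicate 3. The weakest intervals compared were thus of unequal strength between libraries, and read depth is not in these lists. Overlapping intervals were joined into regions, a library called the regions that its intervals touched, and only regions with calls from at least 2 libraries entered the counts. Fold enrichment and rank come from the authors' own values for each peak, and ranks rather than folds were used to compare libraries. All 8 NK markers examined had regions, of which control libraries called 37 to 41 and stimulated libraries 32 to 40. None was found at the B cell markers Cd79a and Ms4a1 or at Cd4, Cd8a and Siglech, while Cd3d and Cd3e had 2 regions called in every library.

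The promoters of 4 genes show the sequence behind the measured regions. Gbp5 and Gbp3 lie under regions that widened with stimulation, Oasl1 under the promoter region of the list that was called more often with stimulation, and Isg15, chosen after its values were seen, under a region called throughout. For Gbp3 the first of its 2 annotated starts is shown. Each line gives the 250 bases before the annotated start, 5′ to 3′ on the gene's strand, from RefSeq on GRCm38.p6, the same build as mm10. Capitals mark matches to the ISRE core GAAANNGAA on either strand, where N is any base.
Gbp5 (chr3:142496684-142496933, plus strand): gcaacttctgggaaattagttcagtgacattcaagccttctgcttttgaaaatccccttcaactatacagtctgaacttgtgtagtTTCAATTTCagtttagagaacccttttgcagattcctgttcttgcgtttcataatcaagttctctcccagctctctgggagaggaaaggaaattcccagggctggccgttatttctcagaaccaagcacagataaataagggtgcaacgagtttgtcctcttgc
Gbp3 (chr3:142559794-142560043, plus strand): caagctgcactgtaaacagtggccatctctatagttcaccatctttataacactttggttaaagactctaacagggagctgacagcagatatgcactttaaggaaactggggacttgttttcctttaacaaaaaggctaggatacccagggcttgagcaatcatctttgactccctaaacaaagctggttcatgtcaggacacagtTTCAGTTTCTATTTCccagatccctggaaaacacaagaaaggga
Isg15 (chr4:156200819-156201068, minus strand): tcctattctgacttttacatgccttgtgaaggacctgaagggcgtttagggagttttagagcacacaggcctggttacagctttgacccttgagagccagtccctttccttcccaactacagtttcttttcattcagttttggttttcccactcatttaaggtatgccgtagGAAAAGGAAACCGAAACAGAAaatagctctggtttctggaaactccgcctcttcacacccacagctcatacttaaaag
Oasl1 (chr5:114922990-114923239, plus strand): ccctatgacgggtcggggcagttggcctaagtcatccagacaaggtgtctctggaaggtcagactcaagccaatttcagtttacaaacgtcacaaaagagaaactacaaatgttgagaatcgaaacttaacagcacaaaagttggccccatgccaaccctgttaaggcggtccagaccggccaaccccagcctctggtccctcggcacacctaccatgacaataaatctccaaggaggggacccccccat

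RefSeq promoter windows of 300 bases, from 250 before to 50 after the start, were at hand for 33 of the 43 genes, with 40 windows in all. The ISRE core was found in 22 of the 40 windows (55.0%), at 21 genes, and in 8.55% of all 32817 windows. Isg15, Ifit1 and Ifit3 each had 3 matches before the start, and those of Isg15 overlap one another. The GAS letters TTCNNNGAA, which can overlap an ISRE match, were in 11 windows (27.5%) and in 8.29% of all. AP-1 letters (TGANTCA) were in 8 windows (20%) against 7.81%, and the kB letters GGGANTTTC were in 1 window, that of Gbp5, against 1.11% of all. The T-box letters AGGTGTGA were in 0 of the 40 windows and in 1.27% of all. Both strands were searched, and a match describes letters only. The Gbp5 window held 1 ISRE core, 2 GAS and 2 kB matches. The Oasl1 window held none of the 5 sets of letters.

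Most of these genes had an open promoter in every group. Of the 84 regions, 51 (60.7%) were called in all 12 libraries, against 46.8% of all regions. At least 1 such region was found at 35 of the 36 genes with a region. The exception was Ifi44. Regions lay within 1 kb of an end of the gene in 44 of 84 cases (52.4%), against 29.9% of the regions near any gene. Of the 51 regions called throughout, 39 lay near a gene end, and of the 33 others, 5 did. The constant regions were also broader, with a median of 1623 bp against 796 bp. As a region joins the intervals of all libraries, one called in more libraries can be wider by construction. Of the 40 promoter windows, 35 lay in a region called in all 12 libraries. The matching counts over all genes, all promoter windows and all constant regions are not given here. The counts for genes, windows and constant regions near a gene end thus cannot show whether the members differ from other genes.

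The other 7 genes received no region by this rule, for different reasons. The promoter of Ifit1, which encodes a protein that binds foreign RNA caps, lay in a region called in 10 libraries that was given to the overlapping gene Ifit1bl2. The region over Parp9, an ADP-ribosyl transferase, was called in all 12 libraries and was given to its neighbour Dtx3l, the ubiquitin ligase that pairs with it. Mx1 and Mx2, dynamin-like antiviral GTPases, are annotated as transcribed pseudogenes in this build and could not receive an interval. The body of Mx1 held 4 regions that went to Bace2 and Fam3b, and the body of Mx2 held 1 that went to Tmprss2 and was called less often with stimulation. Oas1a and Oas2, whose products make the 2′-5′ oligoadenylate that activates RNase L, each had an interval in 3 libraries and no region. Iigp1 had no interval in any library.

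The number of member regions called overlapped between treatments in both genotypes. WT control libraries had 69, 69 and 68 of the 84, and WT stimulated libraries had 67, 70 and 69. KO control libraries had 69, 65 and 66, and KO stimulated libraries had 63, 66 and 67. The group means were 68.7 ± 0.577, 68.7 ± 1.53, 66.7 ± 2.08 and 65.3 ± 2.08 (SD, n = 3). Ranges overlapped between treatments within each genotype, but every WT control library (68 to 69) lay above every KO stimulated one (63 to 67). With every deposited interval, where lists differ in length, the counts were 88, 82 and 90 for WT control, 97, 94 and 108 for WT stimulated, 86, 78 and 88 for KO control and 65, 74 and 87 for KO stimulated. There every WT stimulated library lay above every WT control one, while the KO ranges overlapped. Regions near any gene were also fewest in KO stimulated libraries. In the same group order their means were 31100, 31100, 31100 and 29800 with the strongest intervals. With every deposited interval they were 41300, 48700, 42800 and 36900, also highest in WT stimulated libraries. Each WT stimulated library (46801 to 52070) lay above each WT control one (36596 to 45455) for these regions too.

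**Figure D1:**
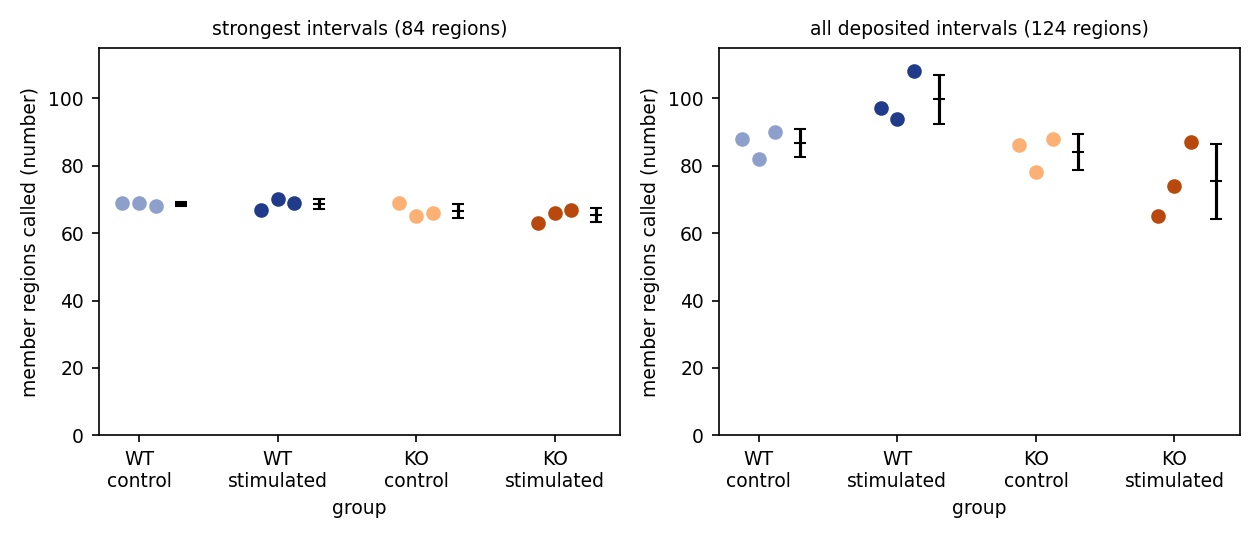
Member regions called in each library (vertical axis, number), by group, for the strongest 35110 intervals of each library (left) and all deposited intervals (right). Points are libraries and bars are mean ± SD of 3. On the left all 12 libraries lie between 63 and 70, and on the right between 65 and 108.

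Which member regions were called did differ with treatment. The share of regions in common between 2 libraries (shared over called in either) averaged 0.89 within WT control and 0.935 within WT stimulated, and 0.791 between those groups. In KO it averaged 0.942 within control, 0.867 within stimulated and 0.766 between them. Between genotypes it was 0.903 in control and 0.847 in stimulated cells. These shares cover member regions only. Without the same shares over all regions, they cannot show whether member regions differ from others.

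Stimulation with IL-12/18 raised calling at 5 member regions, at Usp18, Ifi44, Gbp4, Igtp and Oasl1, and lowered it at 3, at Irgm2, Sp100 and Bst2. The test was a two-sided exact permutation test across all 12 libraries within genotype, with Benjamini-Hochberg adjustment over all 8834 regions whose calls could reach significance. Of the 10 member regions among these, 5 passed as higher and 3 as lower, against 33.8% and 25.9% of all testable regions. Of all 84 member regions this is 5.95% higher and 3.57% lower, against 6.62% and 5.08% of all 45082 regions, so the share of changed regions was near that of the genome. The calls depended on how many intervals were compared. Of the 5 higher regions only Usp18 passed with every deposited interval (Ifi44 had an exact permutation adjusted p of 0.0595 there) and only Gbp4 with the strongest 17555, and of the 3 lower regions 0 passed in either. Changed regions were found at 8 genes, and 28 genes had regions of which none passed. As these are bulk libraries, a change in the share of cells with an open site and a change within each cell cannot be told apart.

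Usp18 removes ISG15 from proteins and dampens type I interferon signalling at the receptor. A region 6.87 kb outside the gene (mm10 chromosome 6, 121238097 to 121239033) had no deposited interval of any strength in the 6 control libraries. It ranked 22525, 21661 and 24236 in the WT stimulated libraries and 16999, 20653 and 26123 in the KO stimulated ones. It was thus called in 0 of 6 control and 6 of 6 stimulated libraries (exact permutation test, adjusted p = 0.0169), and the groups do not overlap. Folds were 13.6, 13.6 and 14.5 in WT stimulated cells and 7.85, 7.83 and 9.24 in KO stimulated cells. The region at the start of Usp18 (121244954 to 121246402) went the other way, from a median rank of 10269.5 in control to 13643 in stimulated libraries, with no overlap. Isg15, the ubiquitin-like modifier itself, had 1 region, called in all 12 libraries at median ranks of 24227 and 21121.

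Ifi44, an antiviral protein gene, had no interval at its promoter window in any library. Its only region, 5.52 kb outside the gene (chromosome 3, 151724294 to 151725397), ranked 21640, 22601 and 18803 in WT stimulated and 10642, 23926 and 19860 in KO stimulated libraries. Among the controls only WT control replicate 3 had an interval there, at a fold of 4.04 and too weak to be called. The count was 0 of 6 against 6 of 6 libraries (exact permutation test, adjusted p = 0.0169).

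The guanylate-binding proteins (GBPs) are large GTPases, induced above all by interferon-gamma, that coat and break the vacuoles of intracellular pathogens. Their 5 genes held 16 regions, 10 of them called in all 12 libraries. Libraries of WT control cells called 11, 11 and 12 of these 16 and those of WT stimulated cells 13, 14 and 13. KO control libraries called 12, 12 and 12, and KO stimulated libraries 13, 12 and 13. Of the 16, 1 passed as higher with stimulation and 0 as lower, beside the 6.62% and 5.08% of all regions.

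Gbp4 had the most regions of the GBP genes, and they moved unequally. A region 1.3 kb outside the gene (chromosome 5, 105140884 to 105142417) ranked 11757, 12475 and 12047 in WT stimulated and 7697, 12519 and 12114 in KO stimulated libraries. Controls had only weak intervals, with folds of 3.54 in WT control replicate 1 and 2.93 in KO control replicate 3, so it was called in 0 of 6 and 6 of 6 libraries (exact permutation test, adjusted p = 0.0169). A region 4.97 kb outside (105144556 to 105146704) was called everywhere but ranked 11117, 13100 and 12041 in WT control, 11889, 12316 and 12582 in KO control, 4535, 4276 and 4690 in WT stimulated and 2019, 5491 and 5358 in KO stimulated libraries. Every stimulated library was stronger than every control. The region at the nearer gene end (105138125 to 105140606) had median ranks of 10830 and 11124, with overlap. A region inside the gene (105116618 to 105118159) was called in 0 of 3 WT control, 3 of 3 WT stimulated, 0 of 3 KO control and 1 of 3 KO stimulated libraries, which did not pass (exact permutation test, adjusted p = 0.0634). Counted with weaker intervals it was present in 0 of 6 control and 6 of 6 stimulated libraries and passed (exact permutation test over all deposited intervals, adjusted p = 0.0404).

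**Figure D2:**
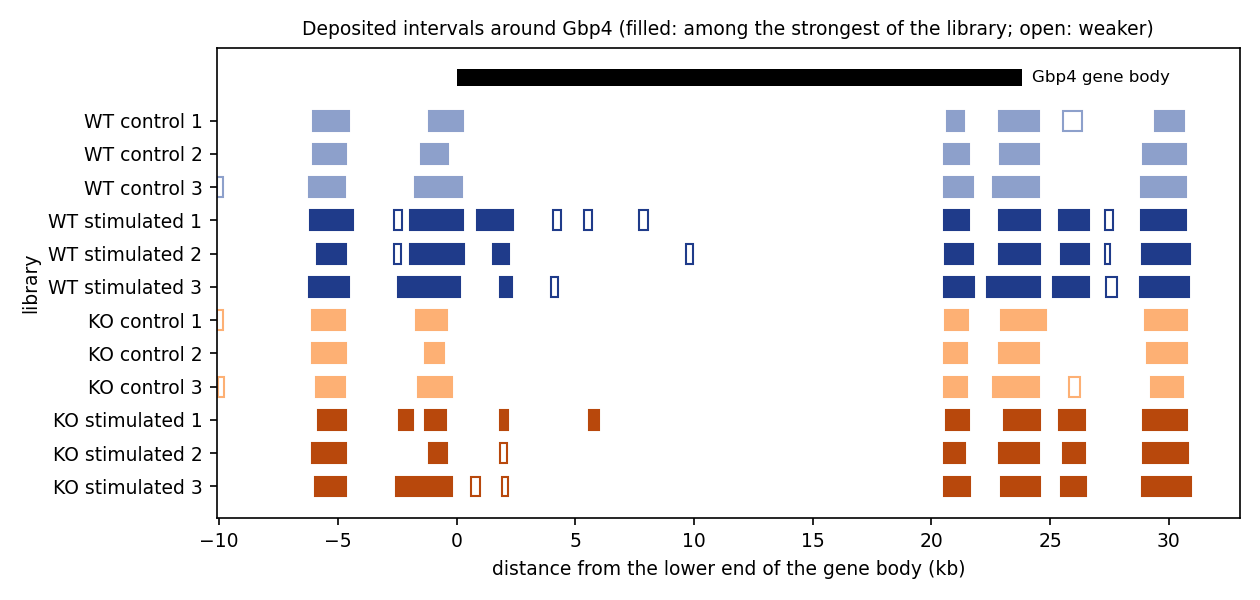
Deposited intervals along the Gbp4 gene (horizontal axis, distance in kb from the lower end of the gene body, black bar), 1 row per library. Filled boxes are among the strongest 35110 of the library and open boxes are weaker. The region 1.3 kb beyond the right end of the gene is filled in the 6 stimulated libraries and in none of the controls.

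Gbp5, which promotes inflammasome assembly, had its largest difference at the promoter. That region (chromosome 3, 142495239 to 142498130) ranked 30610, 30818 and 31665 in WT control and 34621, 28187 and 33201 in KO control libraries. It ranked 14658, 15909 and 14396 in WT stimulated and 10302, 18351 and 14892 in KO stimulated libraries. Controls and stimulated libraries do not overlap in either genotype. The promoter of Gbp2 (142619341 to 142621654) moved the same way, with control ranks of 18484 to 26924 and stimulated ranks of 7278 to 15920. Gbp7 had 4 regions, of which those at its ends were called in all 12 libraries and the other two in some. A region 4.0 kb outside Gbp3 (142577216 to 142578011) was called in all 3 KO stimulated libraries and in none of the other 9. Weaker intervals lay there in WT stimulated replicates 1 and 3, with folds of 3.11 and 4.66, beside 5.35, 4.02 and 7.52 in the KO stimulated libraries. The list of KO stimulated replicate 1 held only 35110 intervals, so any interval in it was called.

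The immunity-related GTPases (IRGs), among them Igtp, Irgm1 and Irgm2, also act on pathogen vacuoles. Inside Igtp (chromosome 11, 58205304 to 58206391) a region ranked 28715, 29615 and 30535 in WT stimulated and 23933, 31887 and 28746 in KO stimulated libraries. Controls held 2 weak intervals, with folds of 2.62 in WT control replicate 3 and 2.56 in KO control replicate 2, so the calls were 0 of 6 against 6 of 6 (exact permutation test, adjusted p = 0.0169). These ranks are among the weaker called ones. Irgm2, its neighbour on the chromosome, had a region lost with stimulation (58221871 to 58222638). It ranked 20505, 19149 and 20057 in WT control and 25010, 26188 and 31623 in KO control libraries, all called. It ranked 44185, 47829 and 47494 in WT stimulated libraries and 49023 in KO stimulated replicate 3, none of them called, with no interval in the other two (exact permutation test, adjusted p = 0.0169). The Irgm2 promoter region (58214039 to 58217351) was weaker in every stimulated library, with ranks of 10087 to 12660 in control and 12766 to 18241 in stimulated libraries. Irgm1 kept its promoter region in all 12 libraries.

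Of the nucleic acid effectors, 7 of 9 genes had regions, 15 in all, and 1 region passed. This was the promoter of Oasl1 (chromosome 5, 114922919 to 114924284), whose product is an OAS-like protein that restrains IRF7 synthesis. A deposited interval was there in all 12 libraries, with folds of 17.0, 3.94 and 4.04 in WT control, 22.0, 9.04 and 14.0 in WT stimulated, 4.16, 4.27 and 5.08 in KO control and 8.21, 4.42 and 12.5 in KO stimulated cells. WT control replicate 1 stood apart, with a rank of 14174 that was stronger than in every stimulated library (15423 to 31505). Only that control was called, against 6 of 6 stimulated libraries (exact permutation test, adjusted p = 0.0335). Zbp1, a sensor of left-handed nucleic acid, had a promoter region (chromosome 2, 173218021 to 173220356) with control ranks of 13538 to 19795 and stimulated ranks of 8278 to 12742. Oas3 moved oppositely at its promoter region (120774817 to 120780279), with ranks of 4667 to 5759 in control and 6090 to 10453 in stimulated libraries. Samhd1, which degrades the nucleotides that viruses need, had the strongest median rank of any constant member region in control libraries, 3785, with 4382 after stimulation.

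Adar, the enzyme that edits adenosine to inosine in double-stranded RNA, had a region inside the gene (chromosome 3, 89727009 to 89727605) called in all 9 libraries of the other groups. It had no deposited interval of any strength in the 3 KO stimulated libraries. Folds elsewhere were 8.75 to 14.5. The KO stimulated lists held 35110, 42543 and 54303 intervals, and the part of list length in this absence was not tested.

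Among the membrane and viral assembly effectors, Bst2 (tetherin) holds budding virions at the cell surface. A region inside it (chromosome 8, 71535594 to 71536286) ranked 22357, 24805 and 29035 in WT control and 23935, 26069 and 20362 in KO control libraries. It ranked 35435, 35453 and 40006 in WT stimulated libraries and 33624 and 35690 in KO stimulated replicates 2 and 3, several of them just past the limit of 35110, with no interval in replicate 1. It was called in 6 of 6 control libraries and 1 of 6 stimulated ones (exact permutation test, adjusted p = 0.0335). The Bst2 promoter region was called in all 12 libraries, at median ranks of 12099 and 13798. Cmpk2, a mitochondrial nucleotide kinase, had a promoter region (chromosome 12, 26468675 to 26470297) with ranks of 4866 to 8253 in control and 9769 to 13327 in stimulated libraries, without overlap. Rsad2 (viperin), next to it, had 3 regions with median ranks of 19818 to 22163 in control and 19545 to 20249 in stimulated libraries. Medians were taken over libraries with an interval. KO stimulated replicate 1 called only 1 of the 3 regions, while every other library called all 3.

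Sp100, a scaffold of nuclear bodies, had 7 regions, the most of any member. A region inside the gene (chromosome 1, 85686591 to 85687975) ranked 20158, 21085 and 19254 in WT control and 23143, 22695 and 24039 in KO control libraries. It ranked 39822, 46668 and 50322 in WT stimulated libraries and 39902 in KO stimulated replicate 2, and no interval was present in the other two. It was called in 6 of 6 against 0 of 6 libraries (exact permutation test, adjusted p = 0.0169). Another, 4.93 kb inside the gene (85654875 to 85656375), moved the other way, with ranks of 9999 to 14104 in control and 2973 to 9139 in stimulated libraries. Trim21 and Trim30a, ubiquitin ligases of the TRIM family, kept their promoter regions in all 12 libraries. Together the TRIM and nuclear body genes had 11 regions, of which WT control libraries called 10, 11 and 10 and WT stimulated libraries 8, 8 and 8. KO control libraries called 10, 9 and 9 of them and KO stimulated libraries 6, 8 and 8. The order depended on the lists: with every deposited interval these genes had 15 regions, of which WT control libraries held 11, 11 and 12, WT stimulated libraries 13, 13 and 13, KO control libraries 11, 11 and 10 and KO stimulated libraries 6, 10 and 11.

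The RNA sensors and the transcription factors had open promoters in every group. Ddx58 (RIG-I), Ifih1 (MDA5) and Dhx58 (LGP2) each had a promoter region called in all 12 libraries. Their ranks moved in different directions. That of Dhx58 (chromosome 11, 100701882 to 100704678) went from 18625 to 24023 in control to 13504 to 16507 in stimulated libraries, and that of Ifih1 (chromosome 2, 62645363 to 62646823) from 7667 to 10185 to 11553 to 17079. Irf9, a transcription factor that acts on ISREs, had a median rank of 4629 in control and 5247 in stimulated libraries, and Irf7, which drives interferon-alpha genes, 8720.5 and 13722. Ifit2 and Ifit3 each had 1 region, called throughout. None of the regions in these 3 role groups passed the test of calls.

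**Figure D3:**
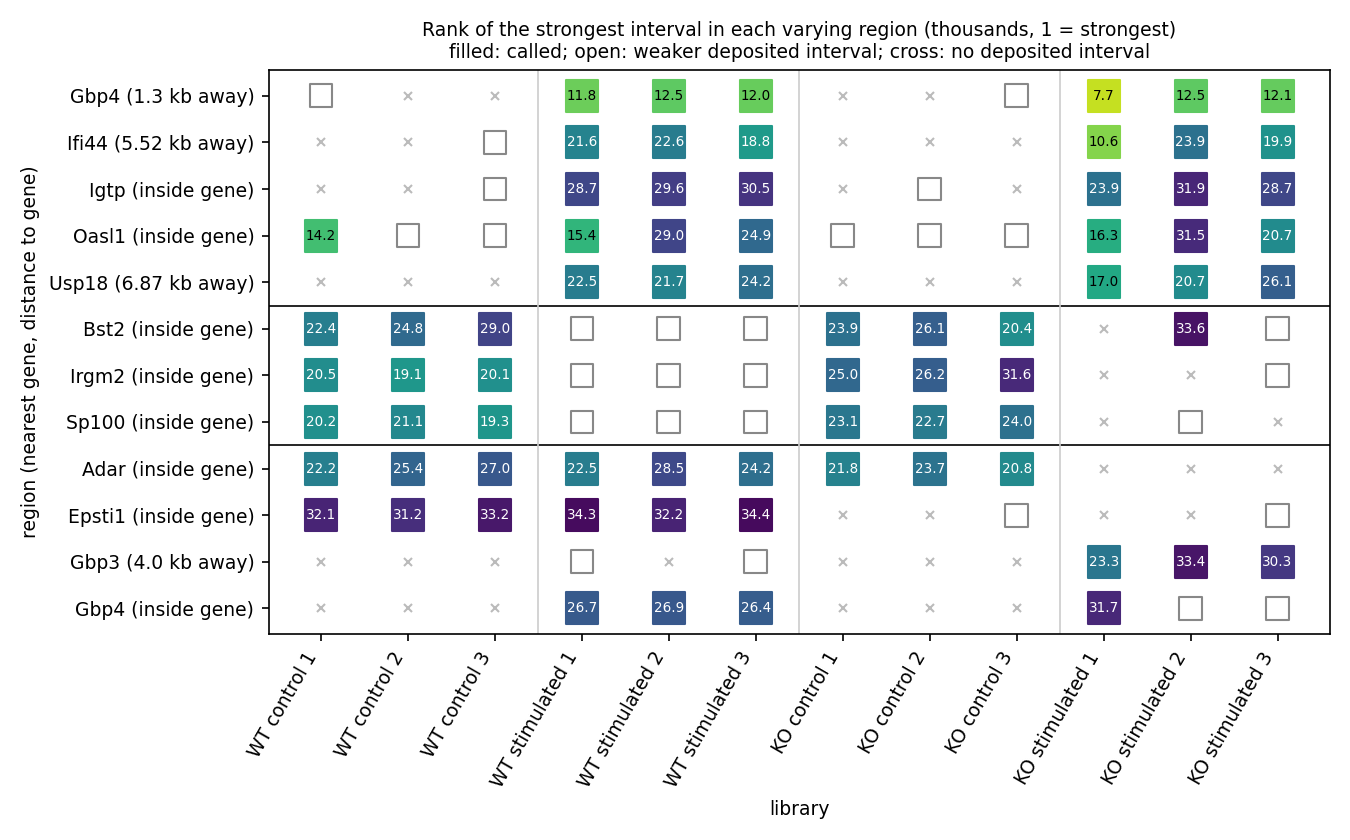
Rank (number in each square, scaled as the title states, 1 = strongest) of the strongest interval in 12 member regions (vertical axis) for each library (horizontal axis). The top block holds the 5 regions called more often with stimulation, the middle block the 3 called less often, and the bottom block the others called in all 3 libraries of a group and none of another. Filled squares are calls, open squares weaker deposited intervals and crosses no interval.

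Among the 51 regions called in all 12 libraries, ranks of the 6 stimulated libraries were all stronger than those of the 6 controls at 6 (11.8%), against 10.8% of all such regions. They were all weaker at 8 (15.7%), against 12.5%. These shares were near the background. The 6 were at Dhx58, Zbp1, Gbp2, Gbp4, Gbp5 and Sp100. The 8 were at Oas3, Usp18, Ifih1, Cmpk2, Epsti1, Parp14, Irgm2 and Adar. Of these 8, Epsti1 and Parp14 moved furthest in median rank, with median ranks of 19079 and 20624 in control and 28879.5 and 28803 in stimulated libraries. No p-value was computed for the ranks. Without KO stimulated replicate 1 the number weaker was 15, and without WT control replicate 1 the numbers were 9 stronger and 10 weaker.

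**Figure D4:**
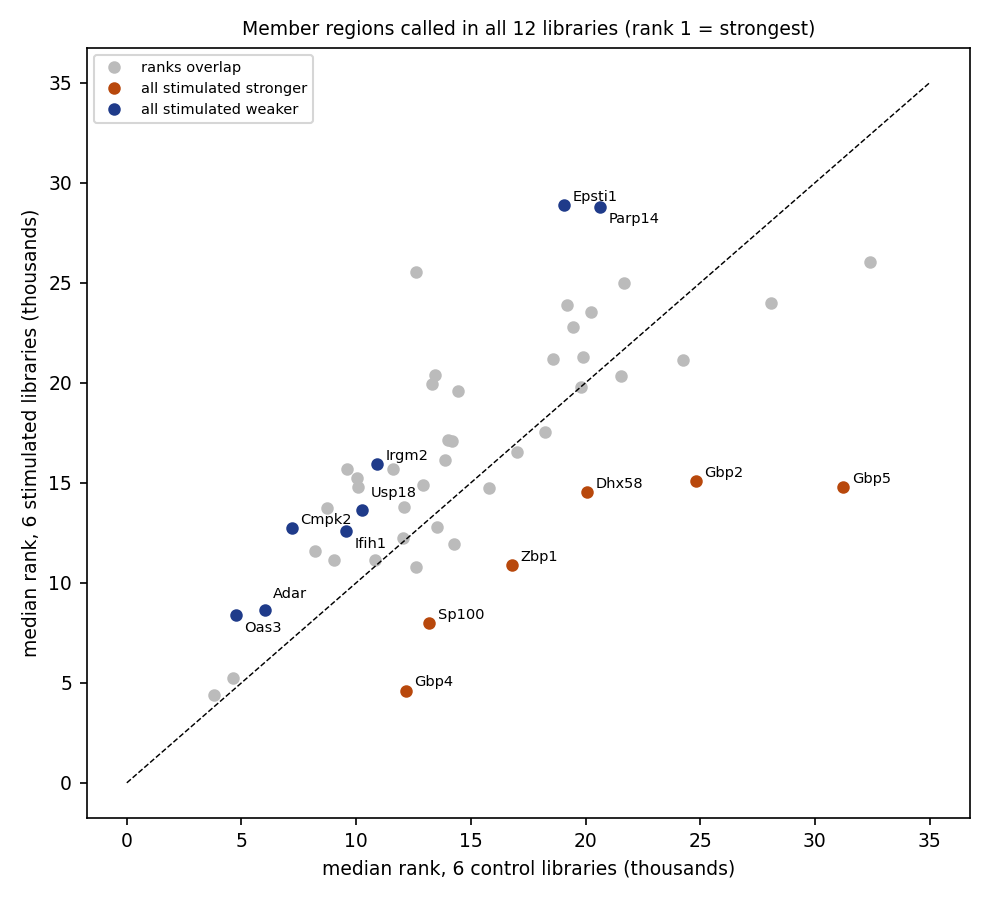
Median rank (scaled as the axes state) in the 6 control libraries (horizontal axis) and the 6 stimulated libraries (vertical axis) of the 51 member regions called in all 12. Rank 1 is the strongest, so points under the dashed line of equality were stronger with stimulation. The Gbp5 promoter region lies furthest under the line, at 31242 and 14775.

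The covered length of a constant region can also change. With limma on log2 length, each library centred on its median, 4 of the 51 member regions widened with stimulation (7.84%, against 10% of all) and 3 narrowed (5.88%, against 6.26%). The median log2 difference was −0.07 over member regions and −0.01 over all. At the Gbp5 promoter the lengths were 1255, 1436 and 1743 bp in WT control, 2829, 2536 and 2561 bp in WT stimulated, 1977, 1603 and 1572 bp in KO control and 2670, 1577 and 2339 bp in KO stimulated libraries. The WT groups do not overlap, while KO stimulated replicate 2 lay among the KO controls. The difference was 0.63 ± 0.13 (log2, SE, limma adjusted p = 0.00592). At Adar (89729961 to 89732383) the length rose by 0.47 ± 0.08 (limma adjusted p = 0.00237), although this region ranked weaker in every stimulated library. The Gbp3 promoter region (142559675 to 142561896) measured 1476, 1480 and 1511 bp in WT control, 1450, 1608 and 1517 bp in KO control, 1617, 1785 and 2015 bp in WT stimulated and 1792, 1994 and 2197 bp in KO stimulated libraries. No stimulated library was as narrow as any control there (0.37 ± 0.07, limma adjusted p = 0.00281). The Gbp4 region 4.97 kb outside the gene widened by 0.34 ± 0.10 (limma adjusted p = 0.0361).

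Regions at Trim30a (−0.49 ± 0.15, limma adjusted p = 0.0434), Ddx58 (−0.33 ± 0.08, 0.0141) and Oasl1 (0.52 kb outside the gene, −0.31 ± 0.10, 0.0491) narrowed. At Trim30a (104445584 to 104447116) the KO stimulated lengths of 973, 593 and 658 bp lay under those of the KO controls, at 1399, 1253 and 1372 bp. The WT lengths overlapped, at 1486, 1254 and 1346 bp in control and 1432, 973 and 1213 bp in stimulated libraries. When WT control replicate 3 was left out, or WT stimulated replicate 2 or 3, the number that passed as narrower was 1.

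**Figure D5:**
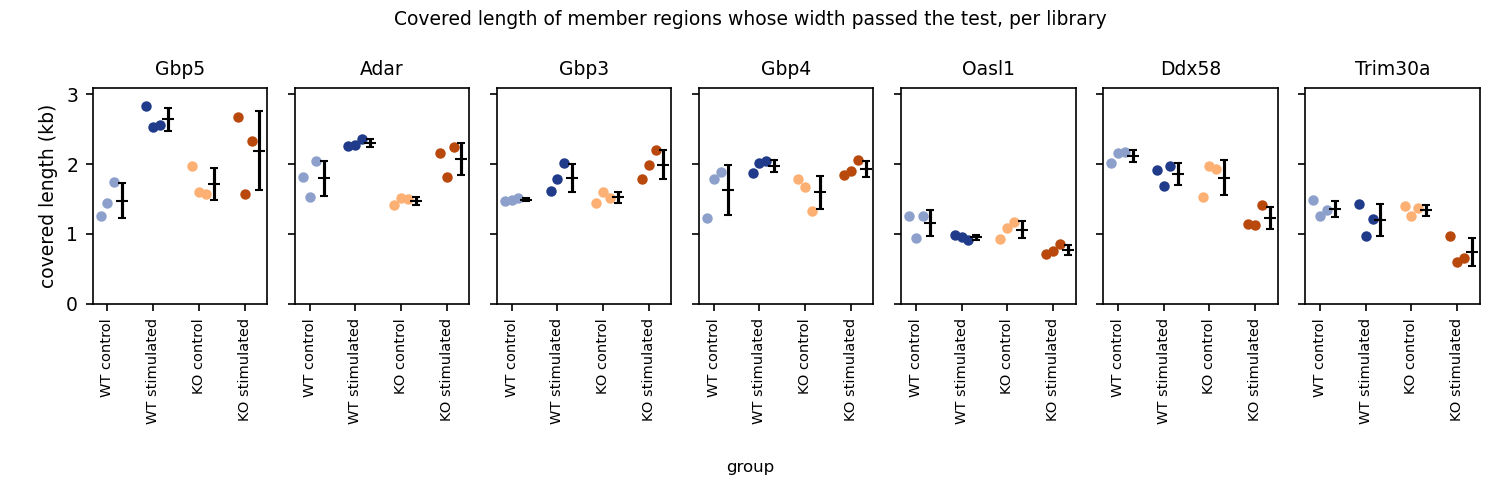
Covered length in kb (vertical axis) of the 7 member regions whose width passed the limma test, by group (horizontal axis). Points are libraries and bars are mean ± SD of 3. Gbp5, Adar, Gbp3 and Gbp4 were wider and Oasl1, Ddx58 and Trim30a narrower with stimulation.

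Deletion of Regnase-1 changed no member region past the threshold. Over both treatments 3 member regions could be tested and 0 passed in either direction, as did 0 (0%) of all 1817 testable regions in the same exact permutation test. At an unadjusted p of 0.05 or less there were 1 of 3 member regions and 480 of 1817 regions, and the smallest adjusted p was 0.147. The difference of the stimulation response between genotypes was called at 0 of 3 member regions and 0 (0%) of all, with 0 and 125 at an unadjusted p of 0.05 or less. In simulated calls, changed regions were called in nearly all libraries of a genotype and nearly none of the other. The genotype test recovered 78.7% of 2000 regions so changed among 45082, and 0% when 200 were changed. In that setting even a near-complete difference was thus not detectable when confined to few regions. The other regions' calls were drawn independently at each region's rate over all 12 libraries, without a treatment effect. Recovery in the data, where 1817 regions could be tested, may therefore differ. Recovery of smaller differences was not simulated.

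Epsti1, a gene of epithelial-stromal interaction also induced by interferon, held the member region that stood nearest to a genotype difference. This region inside the gene (chromosome 14, 77975277 to 77976344) ranked 32145, 31207 and 33155 in WT control and 34265, 32174 and 34404 in WT stimulated libraries, close to the limit of 35110. In KO libraries it was called in 0 of 6, with intervals just past the limit in KO control replicate 3 and KO stimulated replicate 3, at ranks of 35912 and 35231. The exact permutation test gave p = 0.005, the smallest it can give, and an adjusted p of 0.147.

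Each simple comparison of 3 against 3 libraries has a smallest exact p of 0.1 and is given by counts alone. Stimulation in WT gave 5 member regions with calls from all 3 stimulated libraries and from none of the 3 controls (5.95%, against 9.42% of all) and 3 with the reverse (3.57%, against 6.42%). In KO it gave 6 (7.14%, against 5.19%) and 3 (3.57%, against 4.65%). KO against WT gave 0 gained (against 1.14%) and 1 lost (1.19%, against 0.892%) in control cells. In stimulated cells it gave 1 gained (1.19%, against 1.03%) and 2 lost (2.38%, against 1.71%), at Gbp3 and at Epsti1 and Adar. These comparisons share libraries. Counts of lost regions reached 5 in WT, and 2 for KO against WT in control cells, without WT control replicate 1 or 3. Without KO stimulated replicate 3 they reached 6 in KO and 4 for KO against WT in stimulated cells. The gained count for KO against WT in stimulated cells was 2 without WT stimulated replicate 3 or KO stimulated replicate 3. Ranks of the 6 KO libraries were all stronger or all weaker than those of WT at 0 of 51 member regions, against 0.602% and 0.787% of all. Widths differed with genotype at 0 of 51 member regions by limma (0.522% of all, smallest adjusted p among members 0.127), and the width response differed between genotypes at 0 of 51 (0.00474% of all, smallest adjusted p 0.765).

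With every deposited interval, 15 member regions could be tested and 2 were higher with stimulation, at Usp18 and inside Gbp4 (exact permutation test, adjusted p = 0.0404), against 9.2% of the 12434 testable regions. None of the 15 was lower, against 3.18%, and 9 of the 15 had an unadjusted p of 0.05 or less (60%, against 57.3% of all testable regions). The genotype and interaction tests passed at 0 of 9 member regions and 0% of 5103 regions.

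The interferon pathway around the list was read from 71 further genes, of which 67 had regions, 253 in all. Regions were only higher with stimulation at 8 of these genes, only lower at 12, both at Irf1 and neither at 46. This is 15 of 253 regions higher (5.93%, against 6.62% of all) and 17 lower (6.72%, against 5.08%), shares near those of the genome. Ptpn2, a phosphatase that acts on JAK and STAT proteins, had 4 higher regions of 8, and Nlrc5, the activator of MHC class I genes, had 3 higher of 10. Jak1, the kinase shared by both interferon receptors, had 3 lower of 21. Aim2, a DNA sensor, had 2 lower of 9, and Gbp6, a further GBP, 2 lower of 6. Ifng, the gene of interferon-gamma itself, had 2 higher of 16. Irf1, a transcription factor induced by interferon-gamma, had 1 higher and 1 lower of 9. Cxcl9, a chemokine induced by interferon-gamma, had 1 region and it was lower, called in 6 of 6 control and 1 of 6 stimulated libraries (exact permutation test, adjusted p = 0.0335).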

How the data were processed

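ATAC-seq peak lists of 12 libraries were used. Per the submitters' processing notes, the tools were MACS2 2.1.1.20160309, deepTools 3.4.2, SAMtools 1.15.1, Bowtie2 2.3.4.1, cutadapt 4.1 and FastQC 0.11.9, with the build mm10; their settings, and how reads were shifted, are not given in the sources used here. The authors deposited 1 peak list per library, with a score, a fold enrichment (ratio), a −log10 p-value and a −log10 q-value for each interval. Read depth is not in these lists, so no counting interval is given.

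Intervals were ranked by the deposited −log10 q-value, the strongest 35110 (the length of the shortest list) kept, and overlaps of at least 1 bp merged into regions called in at least 2 libraries. The protein-coding gene of RefSeq GRCm38.p6 whose body lay nearest, at most 50 kb away, received the region. Calls were tested by two-sided exact permutation (400 rearrangements at most, smallest p 0.005) with Benjamini-Hochberg adjustment at 0.05, and lengths of constant regions with limma 3.58.1 (R 4.3.3), after checks on simulated data. Python 3.11.15, numpy 2.4.6 and pandas 2.3.3 were used. Named with values in every library are the genes with a region past a test or called in 3 against 0 libraries, and of the other pathway genes those with the most such regions (up to 8). The members and lists were chosen with earlier results of these data known. Alternatives were all deposited intervals, lists of 17555, calls covering 50% of a region, 20 kb flanks, a replicate block, widths without centring and leaving out each library.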

Additional observations from a re-analysis of the deposited data

How the results depend on the processing

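All 5 higher and 3 lower calls at member regions held when any 1 library was left out and with 20 kb flanks. Of these 5 and 3, 1 (Usp18) and 0 passed with all deposited intervals, 1 (Gbp4) and 0 with lists of 17555, whose other calls were at other regions, 2 (Gbp4, Ifi44) and 2 (Irgm2, Sp100) when calls had to cover 50% of a region, and all but Oasl1 and Bst2 with the replicate block. With all deposited intervals, 2 member regions were higher and 0 lower with stimulation, 9 were gained in WT, 0 were lost in KO against WT control cells, and 0 were gained and 7 lost in KO against WT stimulated cells. In those lists called regions per library were 2.17 more numerous in stimulated than in control libraries, against −0.667 with equal lists, and the KO minus WT difference was −13.5 against −2.67. With lists of 17555, 3 member regions were gained and 1 lost in KO, 0 were gained and 1 lost in KO against WT stimulated cells, and the KO minus WT difference was −0.333. In these lists 2 regions were stronger and 5 weaker by rank, an alternative chosen after seeing the data, and higher minus lower regions became −1 at Usp18 and −1 at Igtp, each through another region of the gene. When a call had to cover 50% of a region, 2 were higher, 3 were gained in WT, 2 were lost in KO against WT control cells, and the KO minus WT difference was −9.33. Without centring, 5 member regions had another width in KO. The cause of these changes was not tested.

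Leaving out each library in turn gave 3 to 5 member regions lost in WT, 3 to 6 lost in KO, 1 to 2 lost in KO against WT control cells, 1 to 2 gained and 2 to 4 lost in KO against WT stimulated cells, 1 to 3 narrower, and 8 to 15 weaker by rank.
Whether replicate numbers pair the libraries is not stated in the sources used here. Correlations of same-numbered libraries' deviations were −0.0254 to 0.0735, which cannot decide it. With the number as a replicate block, 4 member regions were higher and 2 lower with stimulation, and 1 was lower in KO, at Epsti1 (exact permutation test, adjusted p = 0.0488), where 57 regions of all passed. Peak lists carry no read depth, so weak sites in the short KO stimulated lists cannot be told from absent ones.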
